A study of Mus musculus with 6 samples.

Results

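The EGF receptor family was examined here through 10 genes: the receptor genes Egfr, Erbb2 and Erbb3, the ligand genes Hbegf, Areg, Btc, Tgfa, Ereg and Egf, and Errfi1, which encodes an intracellular inhibitor of the receptors. They were taken by symbol from a table of 55357 genes, each symbol matched 1 row, and all 10 passed a filter of at least 1 TPM on average, which 15023 genes of the table passed. TPM is a transcript abundance per length of transcript, scaled to the same total in every library, so levels can be set side by side between genes. The samples were 6 subcutaneous tumours of KPC1242, a mouse line of pancreatic ductal adenocarcinoma, grown in C57BL/6J mice from 250000 injected cells. In the folinic acid (FA) group, 3 tumours came from mice given 2 mg of this reduced folate by gavage each day from day 8 to day 12. In the control group, 3 tumours came from mice given phosphate-buffered saline (PBS) on the same days. Tumours were taken on day 14. The study asked how FA changes the tumour microenvironment. The labels give no allele for KPC1242, and both groups rest on this 1 line. The labels do not say outright that each tumour came from its own mouse, so p-values measure the spread between these 6 tumours.

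ERBB receptors are tyrosine kinases of the cell surface that signal as pairs. EGF-like ligands are made as membrane-anchored precursors, released by ADAM proteases, and bind EGFR or, for some, ERBB4; ERBB2 has no known ligand of its own, and ERBB3 binds neuregulins and has little kinase activity. The activated receptors feed the RAS-ERK and PI3K-AKT cascades, and in pancreatic ductal cells EGFR and its ligands are known for their part in the early steps of tumour formation.

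Regulatory sequence upstream of the start was at hand for 7 of the 10 members (Areg, Btc, Egf, Egfr, Erbb2, Errfi1 and Tgfa), in RefSeq's annotation of GRCm38.p6, with 250 bases before each annotated start. The palindrome TGACGTCA, the cyclic AMP response element, was found for 2 of the 7, Areg and Errfi1, against 1.55% of all 32851 RefSeq promoters. Both also held TATAAA, present in 12.4% of promoters, and 39 promoters in all (0.119%) held the pair. GGGCGG, a GC box found on either strand in 32.7% of promoters, was present in both as well, and also in Egfr and Tgfa. TGANTCA, an AP-1 motif present in 6.75%, was in none of the 7. The promoters of Areg and Errfi1 are shown because Areg was the ligand that varied most between tumours and Errfi1 the most abundant member. Capitals mark TGACGTCA, GGGCGG or its reverse complement CCGCCC, and TATAAA, searched on both strands; in Errfi1 a pair of CCGCCC matches overlap. Both sequences lie on the plus strand, Areg at chr5:91139349-91139598 and Errfi1 at chr4:150854820-150855069, where the downstream one of its 2 annotated starts was used. The 250 bases before the other start of Errfi1 held none of these motifs. A member was counted if any of its annotated starts held the motif, and Egf and Errfi1 had 2 starts each. The percentages count every promoter by itself, so the 2 measures are not quite alike.
Areg: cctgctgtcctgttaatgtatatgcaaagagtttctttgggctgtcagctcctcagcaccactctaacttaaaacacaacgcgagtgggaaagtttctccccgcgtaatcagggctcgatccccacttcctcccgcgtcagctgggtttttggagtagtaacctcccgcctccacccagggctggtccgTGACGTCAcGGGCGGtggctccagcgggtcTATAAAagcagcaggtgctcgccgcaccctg
Errfi1: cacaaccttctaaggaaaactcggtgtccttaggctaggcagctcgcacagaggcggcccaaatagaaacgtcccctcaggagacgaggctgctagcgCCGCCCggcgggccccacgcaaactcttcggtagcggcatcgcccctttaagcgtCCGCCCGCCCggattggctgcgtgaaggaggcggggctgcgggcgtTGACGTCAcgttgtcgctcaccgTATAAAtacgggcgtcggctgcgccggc
TGACGTCA begins 61 bases before the start of Areg and 51 bases before that of Errfi1, and TATAAA begins 31 and 28 bases before it. A match describes the letters only and shows no binding. In the same annotation Ereg, Areg and Btc follow one another on chromosome 5, with the ligand gene Epgn on the other side of Ereg.

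The tumours carried ductal epithelial RNA throughout. Krt19, a keratin of ductal cells, stood between 1177 and 1312 TPM in the FA tumours and between 1071 and 1186 TPM in the PBS tumours. FA replicate 3 stood apart from the other 5 tumours. Its correlation with them over all tested genes, which are not independent replicates, was 0.949 to 0.968, against 0.981 to 0.987 among the others. It had the highest summed TPM of 9 fibroblast markers (6737, against 1884 to 3636 in the other tumours), of 6 endothelial markers (208, against 52.7 to 93.6) and of 8 skeletal muscle markers (1272, against 13.2 to 183). The sums of 8 macrophage markers (1052, against 538 to 672), of 5 adipocyte markers (169.6, against 24.3 to 70.4), of 5 neutrophil markers (32.0, against 12.1 to 16.2) and of 8 lymphocyte markers (6.11, against 2.61 to 5.28) were highest there too. So was, by a smaller margin, that of 8 ductal markers (5851, against 4872 to 5621). Of these 8, 4 were highest in FA replicate 3, while Cdh1 (253 TPM) and Msln (232 TPM) were lowest there. The sum of 8 skin epithelial markers was highest there too (14.2, against 10.1 to 12.1, with Krt5 listed at 0 in all tumours). Among them Krt14 was highest (6.59 TPM) and Krt10 lowest (6.68 TPM) in FA replicate 3. In FA replicate 3 most of the neutrophil sum was S100a8 (14.8 TPM) and S100a9 (15.4 TPM), with Ly6g at 0. Most of the lymphocyte sum there was Trac (3.74 TPM), the 1 lymphocyte marker past the filter. Of the 8 lymphocyte markers 5 were highest there, but not Cd3d, Cd4 and Ncr1. Most of the adipocyte sum there was Fabp4 (150 TPM). Of the 5 adipocyte markers 4 were highest there, but not Cidec. Genes other than S100a8 were named here after their values were seen. The sum of 6 mast cell markers was highest in FA replicate 2 (82.0, and 60.2 in FA replicate 3). FA replicate 3 was also the highest tumour for 29.4% of all tested genes. Fewer cells of a type and less RNA per cell cannot be told apart in whole-tumour RNA.

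The most abundant member was Errfi1, with a mean of 120 TPM over the 6 tumours, followed by Hbegf at 78.6 TPM and Erbb2 at 38.2 TPM. Erbb3 (21.4 TPM) and Areg (21.2 TPM) shared the next place, with Erbb3 the higher in 3 of 6 tumours. Btc (16.8 TPM) and Tgfa (14.0 TPM) came after them, and neither Areg and Btc nor Btc and Tgfa kept their order in more than 5 of 6 tumours. Egfr itself stood at 9.08 TPM, below 4 of its ligand genes and above Ereg (4.42 TPM) and Egf (1.74 TPM). The ranges of Errfi1, Hbegf and Erbb2 did not overlap, nor did those of Egfr, Ereg and Egf. By mean TPM, Errfi1 stood at the 91.9th percentile of tested genes, Egfr at the 35.1st and Egf at the 8.80th.

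**Figure D1:**
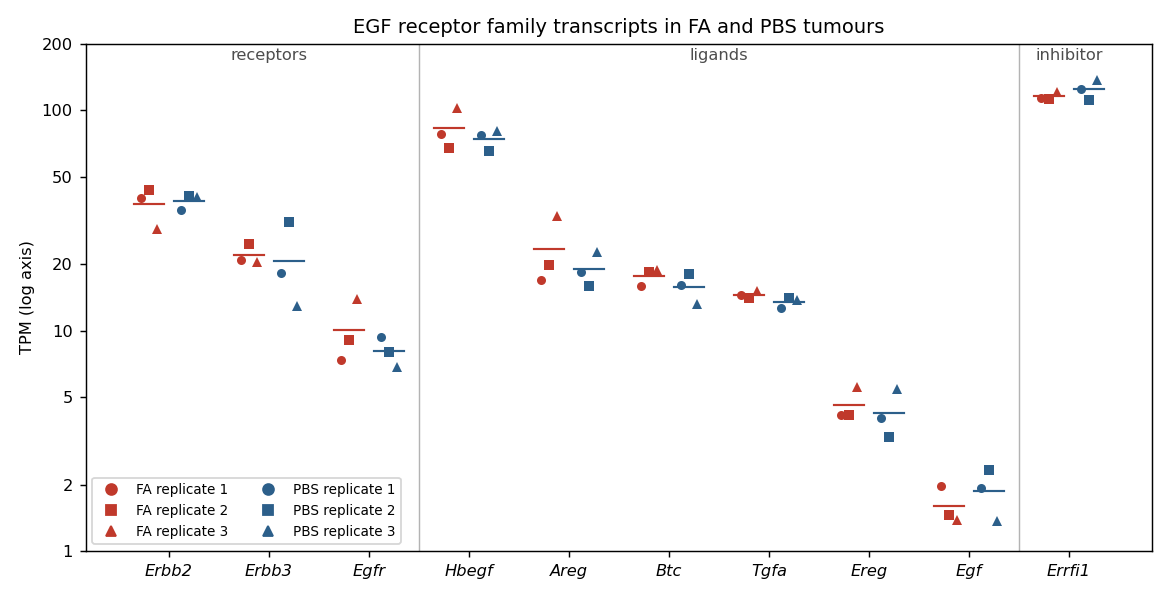
TPM of the 10 genes on a log axis, with FA tumours in red to the left and PBS tumours in blue to the right of each gene, symbols for replicates and lines for group means. Errfi1 and Hbegf lie highest and Egf lowest, and the FA and PBS values overlap for every gene but Tgfa.

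No member differed between FA and PBS tumours past the threshold. The comparison used log2(TPM + 1) in a linear model fitted to all 15023 genes with limma, with p-values adjusted over all of them by the Benjamini-Hochberg method and a threshold of 0.05. Of the 10 members 0 were called, where the background over all tested genes was 0%. No member had an unadjusted p under 0.05 either, against 1.28% of tested genes, and each had an adjusted p of 1. Of the members, 7 had a higher and 3 a lower mean log2 value in the FA tumours, where 50.7% of tested genes had a higher and 49.3% a lower one. Their median log2 difference was 0.12, beside 0.0016 for all tested genes. The 2 groups had no overlap in 1 member, Tgfa, against 4.69% of tested genes, and under median-ratio scaling or quantile normalization they overlapped for that one too.

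Egfr, the receptor for all 6 of these ligands, was at 7.32, 9.05 and 13.9 TPM in the FA tumours, and at 9.32, 7.99 and 6.87 TPM in the PBS tumours. FA replicate 3 was the highest of the 6, and the other 2 FA tumours lay within the PBS range. The log2 difference was 0.26 ± 0.23 (standard error), with a 95% interval from -0.29 to 0.81 (limma, unadjusted p = 0.30). Without FA replicate 3 it was 0.022. The fibroblast, endothelial, muscle, macrophage, adipocyte, neutrophil and lymphocyte marker sums given above were highest in the same tumour, and their part in the Egfr value was not tested.

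Erbb2, the co-receptor that ligands do not bind, was at 40.2, 43.6 and 28.9 TPM in the FA tumours, and at 35.4, 41.0 and 40.4 TPM in the PBS tumours. Here FA replicate 3 was the lowest tumour, while of the other 2 FA tumours, 1 lay inside and 1 above the PBS range. The difference was -0.07 ± 0.16 (interval from -0.45 to 0.31), and 0.11 without FA replicate 3. With Egfr high and Erbb2 low there, the ratio of Erbb2 to Egfr TPM was 2.07 in FA replicate 3 and between 3.80 and 5.87 in the other 5 tumours.

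Erbb3, the neuregulin receptor with little kinase activity, was at 20.9, 24.7 and 20.4 TPM in the FA tumours, and at 18.2, 31.2 and 13.0 TPM in the PBS tumours. The FA values lay close together, inside the wide PBS range that held both the highest and the lowest of the 6 tumours. The highest value was 1.21 times the lowest within the FA group and 2.41 times within the PBS group; this contrast in spread was not tested. The log2 difference of 0.16 ± 0.29 had the widest interval of the receptors, from -0.53 to 0.85. Leaving out PBS replicate 3 gave -0.12, and leaving out PBS replicate 2 gave 0.49.

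Hbegf, a heparin-binding ligand of EGFR and ERBB4, was the main ligand transcript. It was at 78.0, 67.7 and 102 TPM in the FA tumours, and at 77.4, 65.7 and 80.3 TPM in the PBS tumours. FA replicate 3 was again the highest, and the other FA tumours fell inside the PBS range. The difference was 0.13 ± 0.16 (interval from -0.25 to 0.52) and -0.028 without FA replicate 3, the tumour of the highest marker sums, whose part in the Hbegf value was not tested. Of the summed TPM of the 6 ligands, Hbegf made up 57.1 ± 2.83% in the FA tumours, against 57.7 ± 2.32% in the PBS tumours (SD, n = 3 each), and between 53.9% and 59.3% in each of the 6.

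Areg, which encodes the EGFR ligand amphiregulin, was at 16.9, 19.9 and 33.3 TPM in the FA tumours, and at 18.4, 15.9 and 22.7 TPM in the PBS tumours. FA replicate 3 stood above all others, and the 2 remaining FA tumours lay among the PBS ones. The difference was 0.24 ± 0.26 (interval from -0.37 to 0.85) and -0.033 without FA replicate 3. Areg had the largest relative spread of the ligands, with a coefficient of variation of 30.2% over the 6 tumours. Ereg, its neighbour on the chromosome and the gene of epiregulin, was at 4.15, 4.12 and 5.52 TPM in the FA tumours, and at 4.01, 3.28 and 5.44 TPM in the PBS tumours. Its highest 2 values were thus FA replicate 3 and PBS replicate 3, and its difference was 0.11 ± 0.19 (interval from -0.36 to 0.57). Without FA replicate 3 it was -0.0095, and without PBS replicate 2 it was -0.031. The part of the marker sums that were highest in FA replicate 3 was not tested for Areg or Ereg either.

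Btc, the gene of betacellulin and the third of these neighbours, was at 16.0, 18.4 and 18.9 TPM in the FA tumours, and at 16.2, 18.1 and 13.2 TPM in the PBS tumours. PBS replicate 3 was the lowest, apart from the 5 others. The difference was 0.16 ± 0.13 (interval from -0.16 to 0.49), and it was 0.047 without PBS replicate 3. Tgfa, which encodes transforming growth factor alpha, was the steadiest member, at 14.5, 14.1 and 15.1 TPM in the FA tumours, and at 12.7, 14.1 and 13.7 TPM in the PBS tumours. All 3 FA values lay above the PBS ones, the closest pair being 14.12 TPM in FA replicate 2 and 14.08 TPM in PBS replicate 2. The difference was 0.10 ± 0.09, with an interval from -0.11 to 0.31 that includes 0 (limma, unadjusted p = 0.29). Egf was at 1.97, 1.46 and 1.38 TPM in the FA tumours, and at 1.92, 2.34 and 1.36 TPM in the PBS tumours, so the namesake ligand made up 1.15 ± 0.358% of ligand TPM in the FA tumours, against 1.48 ± 0.483% in the PBS tumours. Its difference was -0.13 ± 0.19 (interval from -0.59 to 0.32), with -0.019 when PBS replicate 2 was left out and -0.27 when PBS replicate 3 was.

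Errfi1, also called Mig6, is induced by ERBB signalling and binds the kinase domain of the receptors. It was at 114, 113 and 121 TPM in the FA tumours, and at 125, 112 and 137 TPM in the PBS tumours. The PBS tumours held both the highest and the lowest value, and FA replicate 3 was the highest of the FA tumours. The difference was -0.10 ± 0.09 (interval from -0.31 to 0.11), and it was -0.024 without PBS replicate 3.

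**Figure D2:**
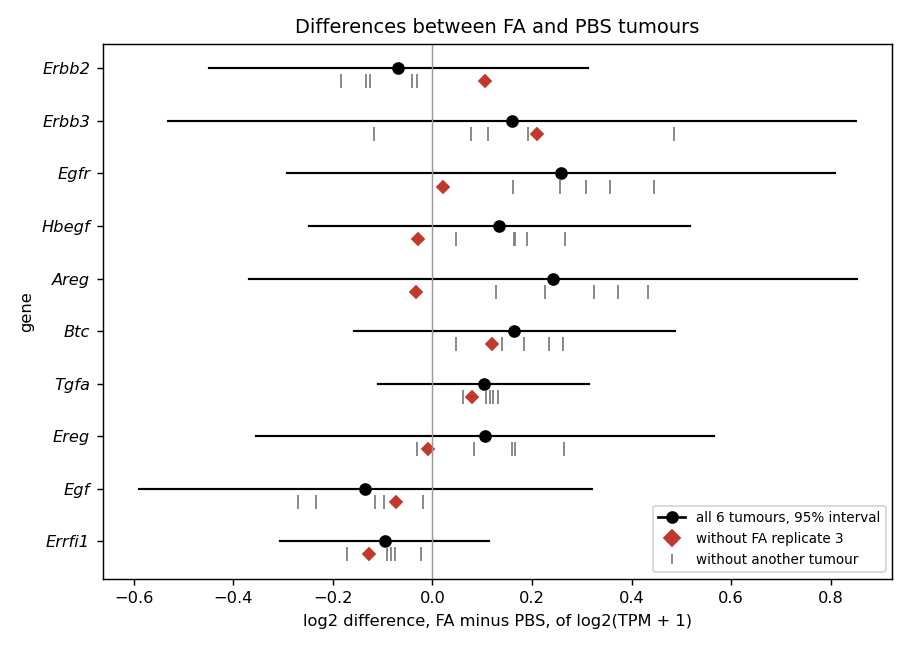
Log2 difference FA minus PBS of log2(TPM + 1) for each gene, with dots and bars for all 6 tumours and their 95% interval, red diamonds for the fit without FA replicate 3 and grey ticks for the fits without each other tumour. Every interval includes 0, and without FA replicate 3 Egfr, Hbegf, Areg and Ereg lie between -0.033 and 0.022.

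FA replicate 3, PBS replicate 2 and PBS replicate 3 held most of the highest and lowest values of the family. The highest value of 6 of 10 members was in FA replicate 3 (Egfr, Hbegf, Areg, Btc, Tgfa and Ereg), as for 29.4% of tested genes. For 1 member, Erbb2, the lowest value was there. PBS replicate 2 held the lowest value of 4 members and PBS replicate 3 that of another 4. The share of tested genes lowest in each tumour was not computed, so these counts of lowest values have no background beside them. The residual SD of log2 values within groups was 0.23 at the median of the members and 0.16 at the median of all tested genes, and 8 of 10 members were above this second value. Erbb3 stood at the 90.4th percentile of tested genes by this SD, Areg at the 87.6th and Egfr at the 83.9th, while Errfi1 stood at the 29.6th and Tgfa at the 7.16th. Over the 6 tumours the highest value was at least 2 times the lowest for 3 members (Erbb3, Areg and Egfr), as for 20.1% of tested genes, and under 1.5 times for 3 members (Btc, Errfi1 and Tgfa), as for 60.3%.

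**Figure D3:**
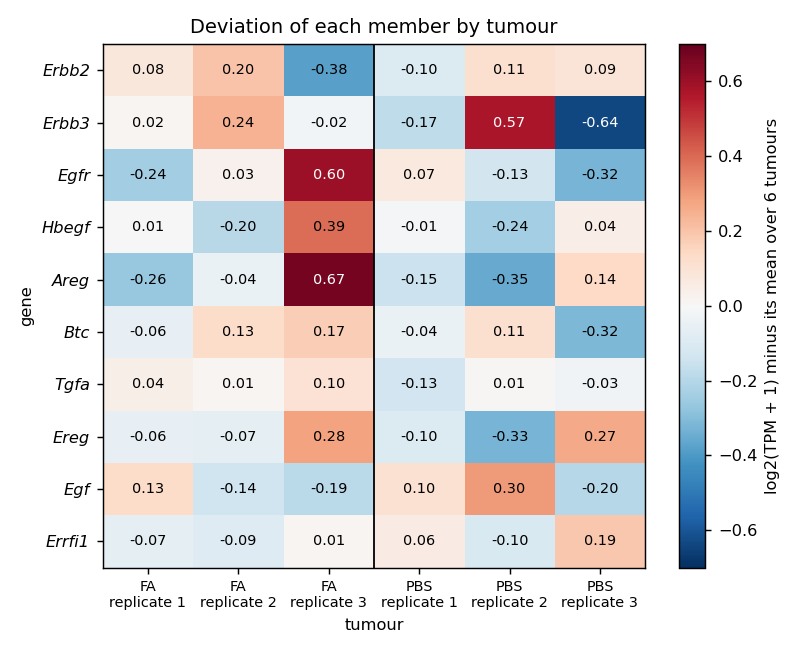
Log2(TPM + 1) of each gene minus its mean over the 6 tumours, with FA tumours in the 3 columns on the left and PBS tumours on the right. The largest deviations are Areg (0.67) and Egfr (0.60) in FA replicate 3 and Erbb3 in PBS replicate 3 (-0.64) and PBS replicate 2 (0.57).

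No pair of members was correlated across the 6 tumours past the threshold, which 1 pair alone could not have reached. Over 45 pairs, the smallest possible permutation p gives an adjusted p of 0.0625 when only 1 pair has it. All 45 pairs were compared on log2(TPM + 1) by exact two-sided permutation over 720 pairings, and 7 had an unadjusted p under 0.05 and 0 an adjusted one. How often pairs of any tested genes reach such a p in these tumours was not computed, so the 7 have no background beside them. Of the 7, the pairs of Erbb3 with Errfi1, Erbb2 with Hbegf, Ereg with Egf and Areg with Egf had a negative r and the others a positive one. Erbb3 and Errfi1 ran in exactly opposite order, with Pearson r = -0.936 (exact permutation p = 0.00139, the smallest these pairings can give, adjusted p = 0.0625) and Spearman rho = -1 (exact permutation p = 0.00278, adjusted p = 0.125). Without PBS replicates 2 and 3, the tumours farthest from the median of Erbb3, r was -0.878. The neighbours Areg and Ereg gave r = 0.864 (exact permutation p = 0.0222, adjusted p = 0.232) and rho = 0.829 (exact permutation p = 0.0583, adjusted p = 0.471), with r = 0.840 when FA replicate 3 and PBS replicate 2 were left out. Areg and Hbegf gave r = 0.870 (exact permutation p = 0.0347, adjusted p = 0.232) and rho = 0.771 (exact permutation p = 0.103, adjusted p = 0.471), but r = 0.0465 without the same 2 tumours, so that relation rests on them. Both groups are pooled in these values, since 3 tumours are too few for a value within a group.

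**Figure D4:**
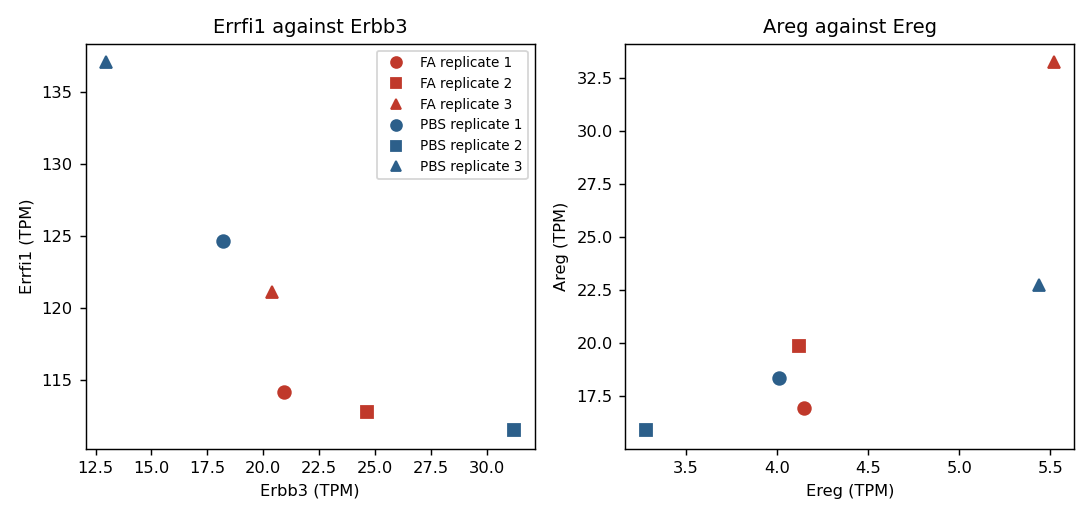
TPM of Errfi1 against Erbb3 (left) and of Areg against Ereg (right) in each tumour, FA in red and PBS in blue, with a symbol for each replicate. Errfi1 is lower wherever Erbb3 is higher, and Areg is highest where Ereg is highest, in FA replicate 3.

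The search for genes of like pattern covered 13096 tested genes with a symbol, leaving out symbols of Gm plus digits or ending in Rik. The genes most like the leading receptor and the leading ligand were sought among them by Pearson r over the 6 tumours. For Erbb2 they were Ppm1a (r = 0.998, rho = 1), Mknk2 (r = 0.997, rho = 0.943) and Myrf (r = 0.994, rho = 0.829), which like Erbb2 were lowest in FA replicate 3. Ppm1a was at 120, 125 and 104 TPM in the FA tumours, and at 114, 123 and 121 TPM in the PBS tumours. For Hbegf they were E2f2 (r = 0.995, rho = 0.943), BC028528 (r = 0.994, rho = 0.943) and Lilrb4b (r = 0.993, rho = 0.886), which were highest in FA replicate 3; Lilrb4b has a close paralog with which reads may be shared. BC028528 was at 11.6, 8.69 and 23.8 TPM in the FA tumours, and at 12.0, 8.59 and 12.7 TPM in the PBS tumours. Of the 13096 genes, 223 had r above 0.95 with Erbb2 and 78 with Hbegf, so such a likeness was not particular to the genes named. The exact permutation p-values of r lay between 0.00139 and 0.00972 for these 6 genes, which were picked for their r.

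The rest of the pathway was described through gene lists. Of 6 other family genes, 3 were below the filter: the receptor gene Erbb4 (0.250 ± 0.233 TPM in the FA tumours, against 0.353 ± 0.248 TPM in the PBS tumours), the ligand gene Epgn (0.070 ± 0.082 TPM under FA and 0.080 ± 0.069 TPM under PBS) and Nrg3, listed at 0 in all 6. The most abundant neuregulin gene, Nrg1, whose product binds ERBB3 and ERBB4, was at 10.3 ± 1.71 TPM in the FA tumours, against 11.5 ± 3.02 TPM in the PBS tumours, a log2 difference of -0.12 ± 0.21. Nrg4 was at 4.05 ± 1.79 TPM under FA and 4.82 ± 0.707 TPM under PBS, and Nrg2 at 1.22 ± 0.335 TPM under FA and 1.22 ± 0.715 TPM under PBS. None of the 3 tested passed, at a median difference of -0.12, which was 0.058 without FA replicate 3.

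Ligand shedding genes were all well above the filter, with 8 of 9 higher on average in the FA tumours, where 50.7% of tested genes were higher. Their median log2 difference was 0.12, with 0 past the threshold. The protease gene Adam10 was the lower one (-0.08 ± 0.09), and Adam17 differed by 0.05 ± 0.07. The inhibitor gene Timp3 (0.08 ± 0.16) was among the higher ones, so the count is not one of proteases alone. These 3 genes were named after their values were seen. The 4 smallest p-values of the list were for Rhbdf1 and Rhbdf2, which encode the iRhoms that carry ADAM17 to the surface, the convertase gene Furin and the rhomboid protease gene Rhbdl2. Rhbdf1 was at 45.2 ± 4.87 TPM in the FA tumours, against 40.1 ± 1.59 TPM in the PBS tumours, a difference of 0.16 ± 0.10, and Furin at 80.0 ± 10.1 TPM under FA and 70.7 ± 4.49 TPM under PBS. Rhbdl2 was at 11.9 ± 0.386 TPM in the FA tumours, against 10.8 ± 0.749 TPM in the PBS tumours. It was the one gene of the list whose groups did not overlap, higher in the FA tumours, or 11.1% of the list. Of tested genes, 4.69% had no overlap in either direction and 2.48% were higher without overlap. Without FA replicate 3 the median of the list was 0.053.

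Among 23 adaptor and RAS-ERK kinase genes, 14 were higher and 9 lower on average in the FA tumours and 0 passed, at a median difference of 0.02. Leaving out PBS replicate 1 moved this median to 0.057, and leaving out PBS replicate 2 moved it to 0.011. The exchange factor gene Sos2 was at 20.9 ± 1.59 TPM under FA and 18.5 ± 1.81 TPM under PBS, and Akt1 at 282 ± 14.4 TPM under FA and 265 ± 8.42 TPM under PBS.

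Of 17 genes for receptor turnover and inhibition, 8 were higher and 9 lower on average and 0 passed, at a median of -0.01 that was 0.052 without FA replicate 3. The groups did not overlap for 2 of them (11.8% of the list), both lower in the FA tumours. Of tested genes, 4.69% had no overlap in either direction and 2.22% were lower without overlap. The 2 genes were Lrig1, which encodes a negative regulator of ERBB receptors, and the endocytic adaptor gene Eps15, which was named after its values were seen. Lrig1 was at 30.1, 31.2 and 26.6 TPM in the FA tumours, and at 32.9, 31.3 and 31.4 TPM in the PBS tumours, a difference of -0.12 ± 0.09. Tnk2, a kinase gene linked to EGFR degradation, was at 95.4 ± 14.0 TPM in the FA tumours, against 81.8 ± 1.45 TPM in the PBS tumours. The ERK feedback genes Spry2 and Spry4, which also belong to the next list, were at 23.9 ± 0.967 and 11.4 ± 1.30 TPM in the FA tumours, and at 22.3 ± 0.649 and 10.1 ± 0.419 TPM in the PBS tumours.

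ERK output genes, transcribed in response to the cascade below the receptors, had 11 of 16 members higher on average in the FA tumours. Their median log2 difference was 0.10, with 0 past the threshold (limma, adjusted p = 1 for each). The 5 lower on average were Dusp4 (-0.16), Etv5 (-0.08), Ier3 (-0.04), Etv4 (-0.04) and Spred1 (-0.03), named after their values were seen. Epha4, an ephrin receptor gene, was at 15.3, 15.7 and 17.2 TPM in the FA tumours, and at 14.2, 12.9 and 12.3 TPM in the PBS tumours, a difference of 0.27 ± 0.10 (unadjusted p = 0.0275). It was the one gene of the list with an unadjusted p under 0.05, or 6.25% of the list beside 1.28% of tested genes. Dusp6, the gene of an ERK phosphatase, was at 134, 139 and 167 TPM in the FA tumours, and at 117, 119 and 134 TPM in the PBS tumours, a difference of 0.24 ± 0.10 (unadjusted p = 0.0524). In Dusp6 the groups met closely, at 133.77 TPM in FA replicate 1 and 133.71 TPM in PBS replicate 3. Epha2, a further ephrin receptor gene, was at 82.3 ± 15.2 TPM in the FA tumours, against 66.3 ± 6.18 TPM in the PBS tumours, and Emp1, a membrane protein gene, at 550 ± 20.9 TPM under FA and 517 ± 6.50 TPM under PBS.

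The 2 groups had no overlap in 3 of the 16, Epha4, Dusp6 and Emp1, all higher in the FA tumours, or 18.8% of the list. Of tested genes, 4.69% had no overlap in either direction and 2.48% were higher without overlap. FA replicate 3 held the highest value of 11 of the 16 genes (68.8%, beside 29.4% of tested genes), and the part of the marker sums that were highest in that tumour was not tested. The median of the list was 0.21 without FA replicate 2. Without FA replicate 3 it was 0.033, and 5 genes did not overlap, beside 17.1% of tested genes in that smaller comparison; they were Epha4, Dusp6, Emp1 and Spry2, higher in the FA tumours, and Ier3, lower, the last chosen after its values were seen. No p is given for the list as a whole.

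**Figure D5:**
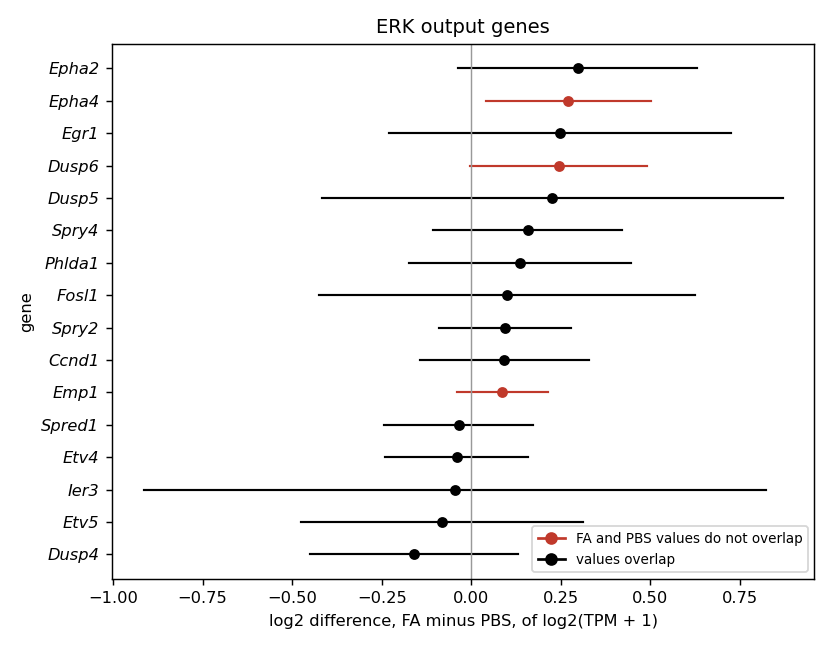
Log2 difference FA minus PBS of log2(TPM + 1) with its 95% interval for the 16 ERK output genes, in red where FA and PBS values did not overlap. The interval of Epha4 lies above 0, and those of the other 15 genes include it.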

How the data were processed

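The authors deposited 1 table of TPM per Ensembl gene, with 1 column per tumour. FastQC, STAR, RSEM and featureCounts are listed in the submitters' processing notes, with no version or role. The genome build, like the annotation, is not given in the sources used here. Columns were matched to tumours by the sample descriptions, whose prefix differs between FA and PBS, so whatever it marks cannot be told apart from treatment. TPM keeps no depth, so read numbers are unknown and no counting interval is given.

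Values were analysed as log2(TPM + 1), which understates changes of low genes, on the 15023 genes that averaged 1 TPM or more, with limma 3.58.1 in R 4.3.3 (FA against PBS, no covariate, variance trend, two-sided p, Benjamini-Hochberg over all genes). The fit was tested on simulated data with independent normal noise for each gene. No simulated tumour stood apart as FA replicate 3 does, so that test cannot show how such a tumour affects the fit. Promoters came from RefSeq (GRCm38.p6) by symbol. The members and lists were chosen with earlier results of these data known. Named genes are all members, the 4 smallest unadjusted p-values of each pathway list, 3 genes of highest r for the leading receptor and ligand, and a first gene of marker lists; others are marked as chosen after their values were seen. Some genes selected this way are left out of the text. The alternatives were a pseudocount of 0.1 or 0.5, a filter at 5 TPM or none, median-ratio and quantile scaling, no variance trend, array weights, a replicate block, and leaving out each tumour.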

Additional observations from a re-analysis of the deposited data

How the results depend on the processing

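By limma, 0 members passed in any of the 15 alternatives. Over all genes, 2 were called higher without the filter, and leaving out 1 tumour gave 0 higher and 0 to 1 lower. With array weights the differences changed sign for Erbb2 (0.063), Areg (-0.012), Ereg (-0.051) and Hbegf (-0.026), and the median of receptor turnover genes was 0.05. Leaving out 1 tumour gave -0.18 to 0.11 for Erbb2, -0.12 to 0.49 for Erbb3, -0.033 to 0.43 for Areg, -0.031 to 0.26 for Ereg and -0.028 to 0.27 for Hbegf. Egfr (0.022 to 0.44), Tgfa (0.06 to 0.13), Btc (0.047 to 0.26), Egf (-0.27 to -0.019) and Errfi1 (-0.17 to -0.024) kept their direction in every alternative that gave a value; Ereg and Egf gave none at a mean of at least 5 TPM. Members without overlap numbered 1, against 0 under median-ratio scaling, 0 under quantile normalization and 1 to 3 when a tumour was left out (2 without FA replicate 1, beside 18.7% of tested genes, 2 without PBS replicate 3, beside 9.73%, and Erbb3, Tgfa and Errfi1 without PBS replicate 2, beside 11.8%). The list medians then ranged from 0.053 to 0.15 for shedding, 0.011 to 0.057 for adaptors and kinases, -0.035 to 0.052 for turnover and 0.033 to 0.21 for ERK output, the last without FA replicate 2, and ERK output genes without overlap numbered 5 without FA replicate 3, an alternative chosen after seeing the data. The labels do not state that shared replicate numbers mark pairs. Correlations of deviations were -0.208, 0.053 and -0.022 between same-numbered tumours, and from -0.192 to 0.245 between differently numbered ones. So few values cannot tell whether tumours were paired. The replicate block left 0 genes higher, 0 lower and 0 members called. Limits set by depth are unknown, since TPM keeps none.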
